A study of Mus musculus with 6 samples.

Results

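The interleukin-1 family in the endotoxin-exposed mouse lung is described here through 9 genes. They are the agonists Il1a, Il1b, Il18 and Il33, the receptor antagonist Il1rn, the decoy receptor Il1r2, the binding protein Il18bp, and the signalling receptors Il1r1 and Il1rl1. They were chosen by name, with earlier results of these data known, and are 9 of 17517 named genes tested. Through their RefSeq transcripts, 16 of the 56605 non-control probes on the array belonged to them. Lung RNA came from 6 male C57BL6 mice, aged 10 weeks, that were fasted for 16 h and then given lipopolysaccharide, a bacterial outer membrane component, at 20 mg/kg into the peritoneum. Of these, 3 received saline and 3 received recombinant antithrombin, an inhibitor of thrombin, at 750 IU/kg. These were given 3 h and 24 h after the endotoxin, and lungs were taken at 30 h. Each mouse had 1 one-colour Agilent array. All 6 mice carried the endotoxin and the fast, and no mouse without them was analysed here.

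Interleukin-1 alpha and beta bind the receptor encoded by Il1r1, which recruits MyD88 and IRAK kinases and activates NF-kB. The same receptor is blocked by the antagonist from Il1rn, and the receptor from Il1r2 binds the cytokine without signalling. Interleukin-18 drives interferon gamma production and is neutralised by the protein from Il18bp. Interleukin-33 is a nuclear alarmin of lung barrier and stromal cells, and its receptor, ST2, is encoded by Il1rl1 in a membrane form that signals and a soluble form that captures the cytokine.

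The bases before the transcription start are shown for the 3 agonist genes and the antagonist gene whose transcripts were higher after antithrombin, and for Il18, the agonist gene whose groups were closest. For Il1rn and Il33, which have several starts, the start shown is one that held a match, and the first start of Il1rn held one too. The starts shown were selected for their matches and do not stand for all starts of these genes. The sequences came from RefSeq promoters of build GRCm38.p6, read 5′ to 3′ on the strand of the gene, 250 bases each. The table held all 9 genes with 14 starts. Capitals mark matches to the TATA box (TATAAA, on the strand of the gene, 40 to 20 bases before the start), the AP-1 motif (TGANTCA), the C/EBP motif (TTNNGNAAT) and the NF-kB motif, the last 3 on both strands, with no overlap in these 5 windows.
Il1a (chr2:129309973-129310222, minus strand): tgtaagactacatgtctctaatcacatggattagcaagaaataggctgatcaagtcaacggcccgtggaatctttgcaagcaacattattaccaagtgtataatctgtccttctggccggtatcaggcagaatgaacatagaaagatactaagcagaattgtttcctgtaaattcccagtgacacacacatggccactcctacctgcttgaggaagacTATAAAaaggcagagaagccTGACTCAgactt
Il1b (chr2:129371140-129371389, minus strand): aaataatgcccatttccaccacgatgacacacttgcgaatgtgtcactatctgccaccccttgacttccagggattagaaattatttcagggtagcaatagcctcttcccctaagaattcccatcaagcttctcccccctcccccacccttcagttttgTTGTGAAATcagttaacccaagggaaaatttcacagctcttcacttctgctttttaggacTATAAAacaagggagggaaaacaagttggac
Il33, the second of 2 starts (chr19:29945540-29945789, plus strand): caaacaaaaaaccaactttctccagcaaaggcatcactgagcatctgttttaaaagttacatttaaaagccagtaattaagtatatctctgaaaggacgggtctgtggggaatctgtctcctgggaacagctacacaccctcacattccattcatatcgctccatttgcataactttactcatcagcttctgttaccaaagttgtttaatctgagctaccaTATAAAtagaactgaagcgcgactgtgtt
Il1rn, the third of 3 starts (chr2:24345121-24345370, plus strand): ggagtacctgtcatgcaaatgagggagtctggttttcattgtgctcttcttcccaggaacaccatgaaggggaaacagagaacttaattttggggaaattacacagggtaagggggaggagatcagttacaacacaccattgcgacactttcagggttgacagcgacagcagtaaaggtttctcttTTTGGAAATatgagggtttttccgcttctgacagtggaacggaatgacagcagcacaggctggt
Il18 (chr9:50554450-50554699, plus strand): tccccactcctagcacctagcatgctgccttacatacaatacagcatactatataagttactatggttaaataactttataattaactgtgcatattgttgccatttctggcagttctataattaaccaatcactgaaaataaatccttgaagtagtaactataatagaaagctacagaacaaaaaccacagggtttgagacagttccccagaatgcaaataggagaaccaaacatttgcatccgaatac
A TATA box began 32 bases before the start of Il1a, 31 before that of Il1b and 29 before this start of Il33. These were 3 of the 14 starts, and 1.99% of the 32851 starts in the table held one at that place. The AP-1 match of Il1a began 12 bases before the start, and the C/EBP matches of Il1b and Il1rn began 91 and 64 bases before it. The first start of Il1rn, not shown, held an AP-1 match 141 bases before it. An AP-1 match lay in 2 of the 14 starts and in 6.75% of all starts in the table. A C/EBP match lay in 5 of the 14 and in 10.2% of all, and an NF-kB match in 3.90% of all. The only NF-kB match among the 14 starts lay 232 bases before the second start of Il1r1.

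Levels are log2 signals less the 75th percentile of the same array, so 0 is the brightness of that percentile. Levels of different probes are not set against each other. Detection well above background was reached by 69.8% to 72.1% of probes, depending on the array. The lung markers Sftpc and Scgb1a1, of alveolar type 2 and club cells, stood between 9.04 and 9.42 and between 9.13 and 9.33 in all 6 mice. Saline mouse 2 stood apart from the other saline mice. Across genes, which are not independent replicates, its mean r was 0.993 with the antithrombin group but 0.989 with saline mice 1 and 3, and values without it are given below where it decides them. With 3 mice per group, precision is set by the number of arrays.

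The comparison asked which family transcripts differed in the endotoxin-exposed lung when antithrombin had been given. The agonists Il1a, Il1b and Il33 and the antagonist Il1rn were each about 1 log2 unit higher in the antithrombin group, and Il18bp was higher by 0.51. The decoy Il1r2, the receptor Il1r1 and the agonist Il18 differed by at most 0.09. None of the 9 genes passed the threshold of an adjusted p of 0.05 over all 32457 genes and unnamed probes tested, where 0.00616% did (limma). At an unadjusted p under 0.05, 5 of the 9 were higher and 0 lower, against 8.73% of all tested features higher and 12.9% lower. Leaving out antithrombin mouse 1 or mouse 2 lowered the count of 5 to 3. The groups did not overlap for 4 of the 9, all higher after antithrombin, against 10.7% of all features higher and 18.1% lower. Because the 9 were chosen with earlier results of these data known, these counts describe them and are no test of the family. The median log2 difference of the 9 was 0.61, and over all features it was -0.05. In whole lung RNA, more cells of a type and more transcript per cell cannot be told apart.

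**Figure D1:**
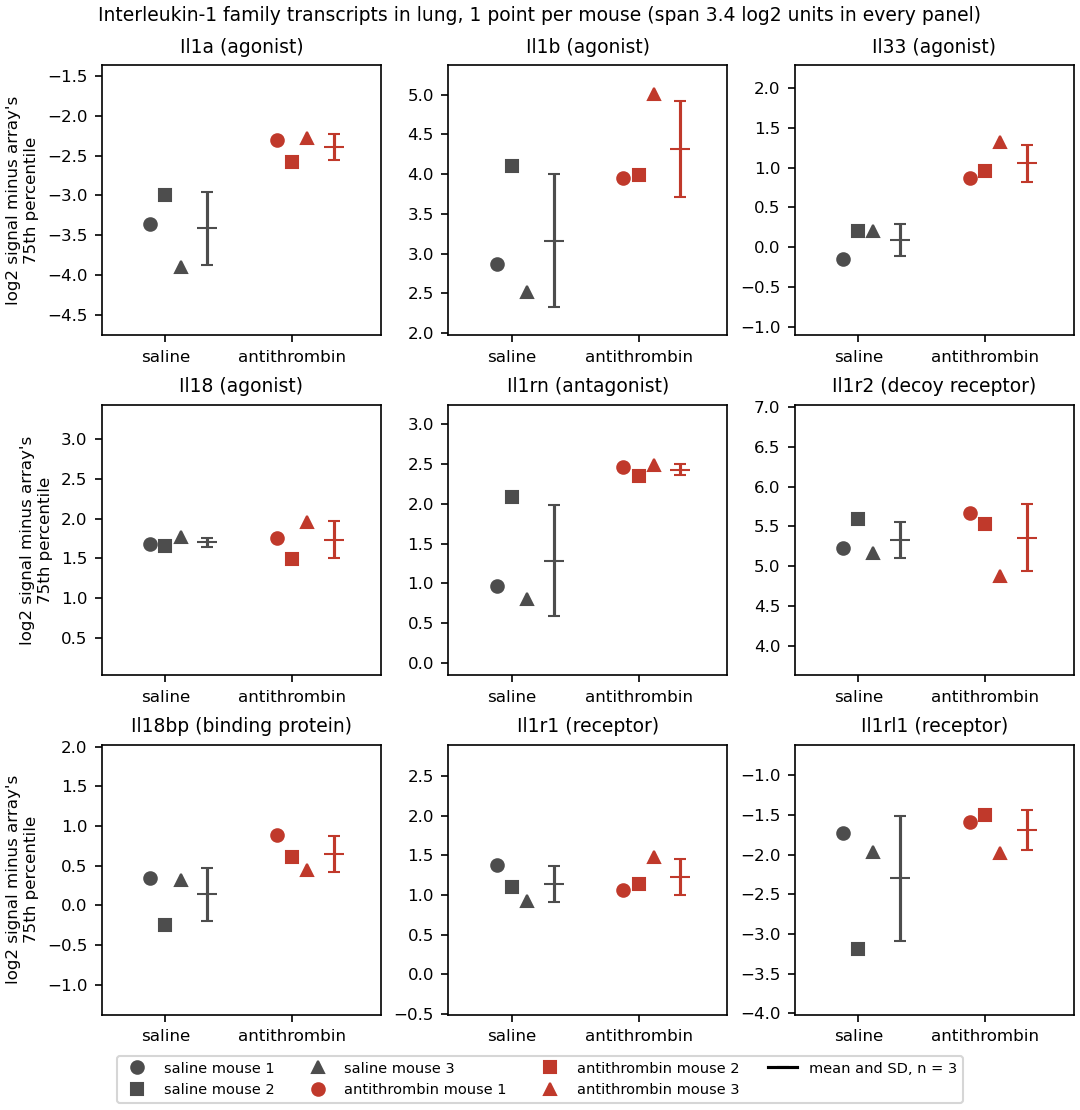
Log2 signal less the 75th percentile of the array (vertical axes) for the 9 genes in the 3 saline and 3 antithrombin mice, 1 point per mouse, with the mean and SD beside the points. All 3 antithrombin mice lie above all saline mice for Il1a, Il33, Il1rn and Il18bp, and saline mouse 2 lies among them for Il1b.

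Il1a encodes the alarmin form of interleukin-1, which is active without cleavage. Its level was -3.36, -2.99 and -3.90 in saline mice 1, 2 and 3, and -2.31, -2.58 and -2.28 in antithrombin mice 1, 2 and 3. Every antithrombin mouse was higher than every saline mouse. The mean was -3.41 ± 0.46 (SD, n = 3) after saline and -2.39 ± 0.16 (SD, n = 3) after antithrombin. Antithrombin minus saline was 1.02 on the log2 scale (SE 0.23, 95% interval 0.47 to 1.58), a 2.03-fold higher signal (limma, adjusted p = 0.153). Under normexp correction of the background it was 0.64.

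Il1b encodes the form that is secreted after cleavage by caspase-1. Its level was 2.86, 4.11 and 2.52 in the saline mice and 3.95, 3.99 and 5.01 in the antithrombin mice. The groups overlapped, because saline mouse 2 exceeded antithrombin mice 1 and 2, and antithrombin mouse 3 was the highest of all. The means differed by 1.15 in log2 (SE 0.47, 95% interval 0.04 to 2.27), or 2.22-fold (limma, adjusted p = 0.222). The spread within each group was wide, with an SD of 0.83 after saline and 0.60 after antithrombin. Leaving out any mouse but saline mouse 2 raised the unadjusted p from 0.0443 to between 0.0508 and 0.135 (limma).

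Il33 had the smallest p of the 9. Its level was -0.14, 0.21 and 0.20 after saline and 0.88, 0.96 and 1.32 after antithrombin, with no overlap between the groups. Its log2 difference was 0.96 (SE 0.17, 95% interval 0.57 to 1.36), or 1.95-fold (limma, adjusted p = 0.151). Unlike for Il1b, saline mouse 2 lay beside saline mouse 3 for Il33. Only 0.462% of the tested features had a p as small as that of Il33 or smaller. That share was 2.34% for Il1a, 6.56% for Il1rn, 19.1% for Il18bp and 19.9% for Il1b, and 41.6% to 94.9% for the rest of the 9.

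Il18, the remaining agonist, stood at 1.68, 1.66 and 1.77 after saline and 1.76, 1.49 and 1.96 after antithrombin. The saline mice lay within the range of the antithrombin mice. They differed by 0.04 in log2 (SE 0.14), and its 95% interval, -0.30 to 0.38, left out a difference of the size measured for the other 3 agonists.

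Il1rn encodes the interleukin-1 receptor antagonist. Its level was 0.96, 2.09 and 0.81 after saline and 2.46, 2.35 and 2.49 after antithrombin. The antithrombin mice lay close together, with an SD of 0.07, and saline mouse 2 lay nearer to them than to saline mice 1 and 3. In log2 the groups differed by 1.14 (SE 0.33, 95% interval 0.37 to 1.92), or 2.21-fold (limma, adjusted p = 0.161).

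Il18bp encodes the soluble protein that neutralises interleukin-18. It stood at 0.35, -0.24 and 0.31 after saline and at 0.89, 0.61 and 0.44 after antithrombin. The groups did not overlap, although antithrombin mouse 3 lay just above saline mouse 1. The log2 difference was 0.51 (SE 0.20, 95% interval 0.03 to 0.99, limma, adjusted p = 0.217). Saline mouse 2 was the lowest mouse for Il18bp and the highest saline mouse for Il1a, Il1b and Il1rn, and without it the Il18bp difference was 0.32. The unadjusted p of Il18bp was 0.0413 with all mice (limma). It was 0.0952 without saline mouse 2, 0.132 without antithrombin mouse 1 and 0.0789 without antithrombin mouse 2. With any other mouse left out it stayed under 0.05.

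Il1r2, the decoy receptor, is abundant in neutrophils. Its level was 5.23, 5.59 and 5.17 after saline and 5.66, 5.54 and 4.88 after antithrombin. The groups overlapped, and the lowest value belonged to antithrombin mouse 3, which had the highest Il1b. Antithrombin minus saline was 0.03 in log2 (SE 0.23, 95% interval -0.53 to 0.59).

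Il1r1, the signalling receptor of interleukin-1, stood at 1.38, 1.10 and 0.93 after saline and at 1.06, 1.14 and 1.48 after antithrombin. The groups overlapped, and the log2 difference was 0.09 (SE 0.17, 95% interval -0.31 to 0.49). The signs of the differences of Il1r1, Il1r2 and Il18 depended on single mice.

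Il1rl1 was measured by 3 probes. The brightest, on the transcript of the membrane form, stood at -1.73, -3.20 and -1.97 after saline and at -1.59, -1.51 and -1.98 after antithrombin. Saline mouse 2 was low, and the other 5 mice lay close together. The log2 difference was 0.61 (SE 0.38, 95% interval -0.29 to 1.51, limma, adjusted p = 0.37), and 0.16 without saline mouse 2. A second probe of this form was well above background in none of the 6 mice. The probe on the transcript of the soluble form read -4.83, -8.45 and -4.86 after saline and -5.90, -6.51 and -5.92 after antithrombin. It was well above background in saline mice 1 and 3 and in antithrombin mice 1 and 3. Both detected saline mice lay above all 3 antithrombin mice on it, while saline mouse 2 was lowest, and the log2 difference was -0.06 (SE 0.94, 95% interval -2.28 to 2.16). The level of the soluble form was therefore not resolved by these arrays.

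Other probes of the same gene gave like differences for 5 of the 6 that were detected, and the soluble Il1rl1 probe had the opposite sign. The other Il1b probe gave 1.34 (SE 0.47), the other Il1rn probe 1.34 (SE 0.38) and the other Il33 probe 0.79 (SE 0.19). The other probes of Il18bp and Il1r2 gave 0.50 and 0.11. Probes of a gene share the RNA of the same mice, so they show agreement of the measurement and not further replicates.

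**Figure D2:**
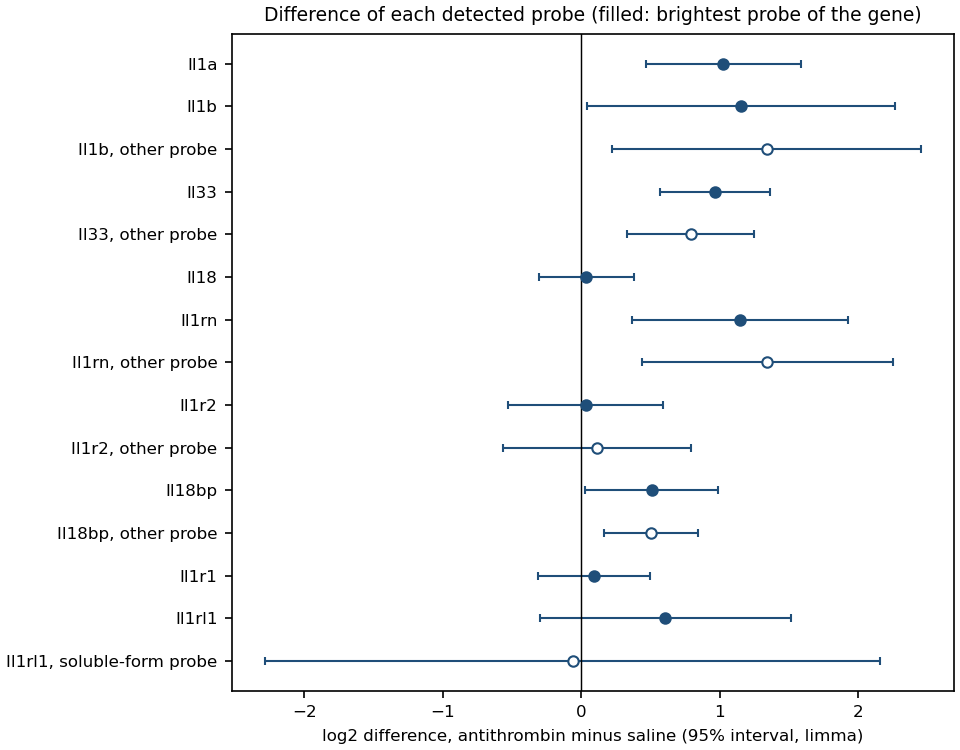
Log2 difference, antithrombin minus saline, with its 95% interval from limma (horizontal axis), for the 15 detected probes of the 9 genes, 3 mice per group. Filled points are the brightest probe of each gene and open points the other probes, and the intervals of both probes of Il1b, Il33, Il1rn and Il18bp lie above 0.

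Saline mouse 2 decided the adjusted calls. Without it, 4 of the 9 genes were higher at an adjusted p under 0.05, against 4.65% of all features (limma). They were Il1rn (log2 difference 1.55, adjusted p = 0.0238), Il1a (1.24, 0.0312), Il33 (1.02, 0.0356) and Il1b (1.62, 0.0469). The adjusted p ran over the alternatives from 0.0238 to 0.366 for Il1rn, 0.0312 to 0.353 for Il1a, 0.0356 to 0.353 for Il33 and 0.0469 to 0.472 for Il1b. With array weights, which gave saline mouse 2 the lowest weight of 0.375, Il33, Il1rn and Il1a passed, against 3.43% of all features higher. Saline mouse 2 was the highest saline mouse for all 4 genes, so leaving it out raises these differences by construction. For Il33 the rise was small, from 0.96 to 1.02, and its unadjusted p rose from 0.000777 to 0.00189 (limma). Over all features, the number past the adjusted threshold went from 2 to 3415. Without saline mouse 3 the Il33 difference was also 1.02, with an adjusted p of 0.338 (limma). The count of genes without saline mouse 2 is no separate support.

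The arrays lay in 2 rows of 1 slide, scanned on 1 date. In the row with 2 mice of each group the log2 difference was 0.73 for Il1a, 0.48 for Il1b, 0.89 for Il33, 0.88 for Il1rn and 0.70 for Il18bp. In the row with 1 mouse of each group it was 1.61, 2.49, 1.12, 1.68 and 0.13 in the same order. All 5 were positive in both rows, and Il1b differed most between rows.

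Agonist and inhibitor were then compared within each mouse, to ask whether one moved more than its partner. The log2 ratio of Il1rn to Il1b changed by -0.01 between groups, and that of Il1rn to Il1a by 0.12. In the saline mice the Il1rn to Il1b ratio was -1.90, -2.02 and -1.71, and in the antithrombin mice -1.49, -1.64 and -2.53. This ratio of transcripts was higher in antithrombin mice 1 and 2 than in any saline mouse, for mouse 2 only slightly, and lowest in antithrombin mouse 3. Leaving antithrombin mouse 3 out made the change between groups 0.31. Only the change of such a ratio can be read, since its level compares different probes.

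The ratio of the decoy Il1r2 to Il1b stood at 2.37, 1.48 and 2.64 in the saline mice and at 1.72, 1.55 and -0.14 in the antithrombin mice, a change of -1.12. Antithrombin mouse 3 was far below the other 5 mice, and it was -0.53 when that mouse was left out. Il1r2 against Il1r1 changed by -0.06. Il18bp against Il18 changed by 0.47, being -1.33, -1.90 and -1.45 after saline and -0.87, -0.88 and -1.52 after antithrombin, so that antithrombin mouse 3 again lay apart from mice 1 and 2. Il1rl1 against Il33 changed by -0.36. The groups overlapped for all 6 ratios. Exact two-sided permutation tests gave p = 0.3 for Il1r2 to Il1b and Il18bp to Il18 and p between 0.6 and 1 for the others, with adjusted values of 0.9 and 1 over the 6 ratios. With 3 mice per group the smallest p such a test can give is 0.1.

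**Figure D3:**
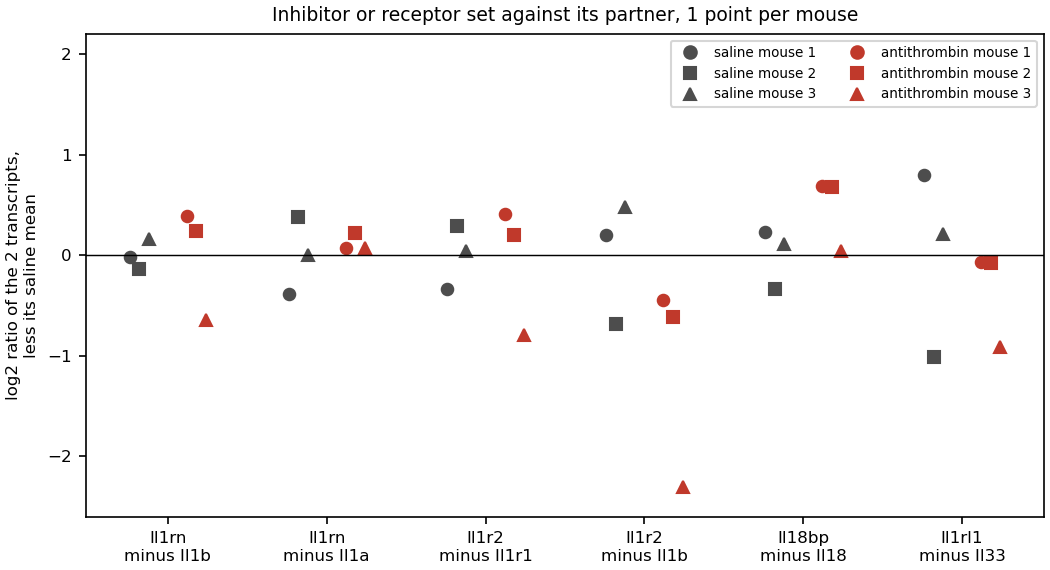
Log2 ratio of an inhibitor or receptor transcript to its partner, less the saline mean of that ratio (vertical axis), for 6 pairs, 1 point per mouse. The groups overlap in every pair, and antithrombin mouse 3 is the lowest mouse for Il1rn against Il1b, Il1r2 against Il1r1 and Il1r2 against Il1b.

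The remaining family members were described from a list of 12 genes, of which 6 were detected well enough to test. Il1rap, the accessory chain shared by the receptors, was higher by 0.33 (SE 0.12, limma, adjusted p = 0.193), and the epithelial agonist Il36g, named Il1f9 in the reference, by 1.23 (SE 0.50, adjusted p = 0.22). These 2 were the members at an unadjusted p under 0.05, where 8.73% of all features were higher, and none passed the adjustment. Il36a, named Il1f6 there, had a difference of 1.06 (SE 0.51), and Sigirr, an inhibitory receptor, -0.17. The Il36a signal was dim, at -6.19, -5.47 and -7.59 after saline and -5.10, -5.72 and -5.24 after antithrombin, and the groups overlapped. Both Il1rap and Il36g lost the unadjusted threshold without saline mouse 1, saline mouse 3, antithrombin mouse 1 or antithrombin mouse 3, and the count was 1 without antithrombin mouse 2 and 3 without saline mouse 2. The list median was 0.22.

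Of 21 tested signalling components below the receptors, 0 were higher and 1 was lower by the unadjusted test, against 8.73% and 12.9% of all features. Whether the list differed from the agonists was not tested, and the median log2 difference was -0.06, close to that of all features. The lower one was Tollip, an inhibitory adaptor, at -0.31 (SE 0.12, limma, adjusted p = 0.206), and it missed that threshold without saline mouse 1, saline mouse 3, antithrombin mouse 2 or antithrombin mouse 3. Without saline mouse 2, 2 were higher and 3 lower. The kinase adaptor Tab1 stood at -0.25, the ubiquitin ligase Peli2 at -0.50 and Irak3, the inhibitory kinase of the pathway, at 0.61. None of these 3 passed.

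Of 19 tested genes for processing and release, 3 were higher and 0 lower at that unadjusted threshold, with a median of 0.14. The shares over all features were 8.73% and 12.9%, so the count of 3 is not far from the background. Casp4, the intracellular endotoxin sensor caspase, differed by 0.39 (SE 0.10, limma, adjusted p = 0.156), Mefv, which encodes the inflammasome sensor pyrin, by 1.03 and the neutrophil protease Prtn3 by 0.44. Aim2 stood at -0.43. Casp1, the caspase that cleaves interleukin-1 beta, differed by 0.05 (SE 0.13). The count of 3 fell to 1 when saline mouse 1 or antithrombin mouse 3 was left out, and was 5 with 3 lower when saline mouse 2 was.

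Of 25 genes induced by interleukin-1, 11 were higher and 0 lower at that threshold, against 8.73% and 12.9% of all features, with a median of 0.58. None passed the adjustment. The monocyte attractant Ccl2 differed by 1.20, the endothelial selectin Sele by 1.30, the neutrophil attractant Cxcl2 by 0.67 and the growth factor Csf3 by 0.91. These have the smallest p of the list. Of the 25 differences 18 were positive and the others negative, where 43.0% of all features were positive. Many of these genes also respond to other endotoxin signals. This list too was chosen with earlier results of these data known, so its count is descriptive. The count was 6 without saline mouse 1, 6 without saline mouse 3 and 6 without antithrombin mouse 3.

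On the interleukin-18 side, 2 of 14 genes passed the unadjusted threshold, both higher, a count close to the 8.73% of all features. They were Il12rb1, a chain of the interleukin-12 receptor, at 0.75 (SE 0.15, limma, adjusted p = 0.151), and the chemokine Cxcl10 at 0.97. Il12b stood at 0.32 and Cxcl9 at -1.30, the latter with saline mouse 2 at -2.02 against 1.24 and 1.58 in saline mice 1 and 3. Ifng differed by 0.08 (SE 0.47).

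On the interleukin-33 side, 1 of 13 tested genes was higher and 1 lower at that threshold, near the 8.73% and 12.9% of all features and thus no result about the list. Ccl24, an eosinophil attractant, stood at -1.98, -1.36 and -1.44 after saline and at -0.40, -0.08 and -0.24 after antithrombin, a difference of 1.36 (SE 0.19, limma, adjusted p = 0.151). Rora, a transcription factor of innate lymphoid cells and of other cells, differed by -0.49, Il7r by -0.46 (SE 0.21) and Klrg1 by 0.97 (SE 0.44). Il7r and Klrg1 did not reach that threshold. The groups overlapped for the dim Klrg1, which was highest in antithrombin mouse 3, at -3.25. Rora missed the threshold without saline mouse 1, saline mouse 3, antithrombin mouse 1 or antithrombin mouse 3. There were 4 lower without saline mouse 2, and 2 higher without antithrombin mouse 2. The type 2 cytokines Il4, Il5, Il9 and Il13 were each well above background on fewer than 3 arrays and were not tested, so a difference in them was not detectable here.

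**Figure D4:**
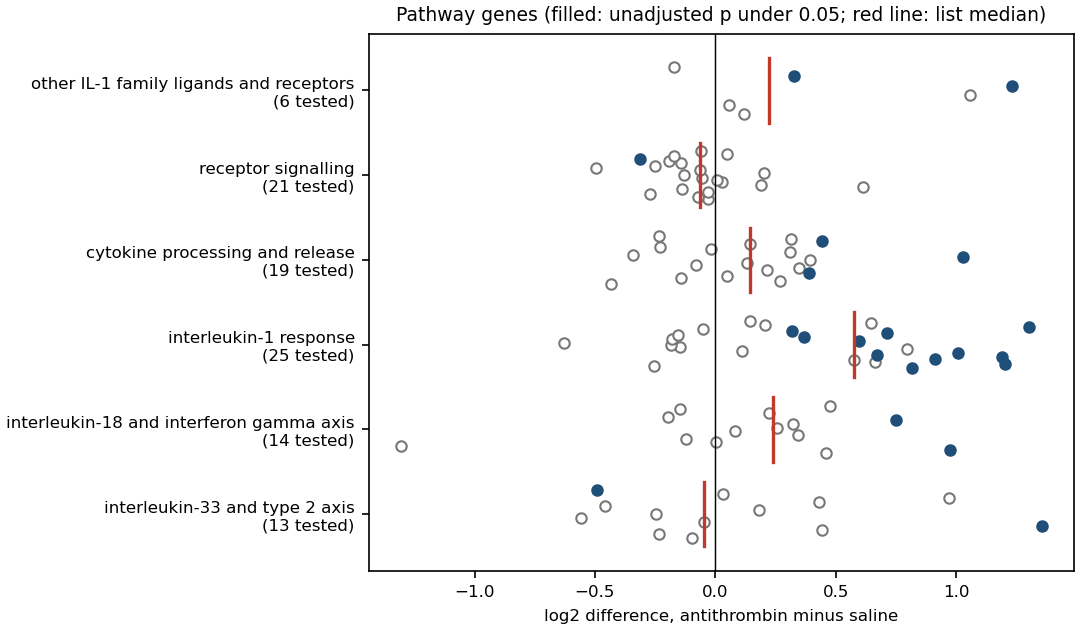
Log2 difference, antithrombin minus saline (horizontal axis), of every tested gene in the 6 pathway lists, 1 point per gene, with the list median as a red line. Filled points have an unadjusted p under 0.05 (limma), and 11 of the 25 genes of the interleukin-1 response list are filled, all to the right of 0.

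Markers of lung and blood cells were read beside these values. Over all features 43.0% of differences were positive, 8.73% were higher at an unadjusted p under 0.05 and 12.9% lower. Of 11 tested neutrophil markers 10 had a positive difference, 5 were higher at an unadjusted p under 0.05 (limma) and the median was 0.50. Their summed level ran from 9.86 to 10.17 (log2) in the saline mice and from 10.09 to 10.31 in the antithrombin mice. Signals were summed before the log, so the brightest probes weigh most in each sum. The mean shift of the 11 neutrophil markers from their saline means weighs each marker alike. It was -0.20, 0.35 and -0.15 in saline mice 1, 2 and 3, and 0.63, 0.54 and 0.56 in antithrombin mice 1, 2 and 3. For monocytes and macrophages 7 of 10 were positive, 3 were higher at that p, and the sum ran from 8.83 to 8.89 and from 8.69 to 8.90. Ly6c2 weighed most in it, with means of 8.22 after saline and 8.04 after antithrombin. For mast cells and basophils 5 of 7 were positive, with sums from 3.62 to 3.95 and from 3.96 to 4.10. Hdc weighed most in these sums, with means of 3.20 after saline and 3.58 after antithrombin. Kit and Tpsb2 differed by -0.11 and -0.17. Alveolar type 2 markers, 5 of 10 positive, summed to between 10.50 and 10.59 and between 10.37 and 10.55. Endothelial markers were negative in 9 of 10, with 1 lower at that p, and summed to between 7.35 and 7.58 and between 7.07 and 7.32. Of 7 tested alveolar type 1 markers 6 were negative and 3 lower at that p, with a median of -0.22. Their sums were 8.11 to 8.26 after saline and 7.82 to 8.03 after antithrombin. These sums did not overlap between groups, and neither did those of endothelial cells or of mast cells and basophils. For mast cells and basophils the gap was narrow, with 3.95 in saline mouse 3 and 3.96 in antithrombin mouse 1. By the mean shift of the markers, the groups overlapped for endothelial cells and for mast cells and basophils. By that measure they did not overlap for neutrophils or alveolar type 1 cells. Over single features, 10.7% did not overlap and were higher, and 18.1% were lower. Alveolar macrophage markers, 4 of 9 positive and 1 higher, had a median of -0.11. Fibroblast markers, 5 of 9 positive and 1 higher, had a median of 0.12. Club cell markers, 3 of 6 positive with 1 higher, and T and NK cell markers, 6 of 10 positive with none at that p, had medians of -0.01 and 0.06. The neutrophil marker Ly6g had no matched probe, and Ms4a2 and Mcpt8 of mast cells and basophils were not detected well enough to test. The part of these cells in the differences of the 9 genes was not tested.

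The named genes most like a member across the 6 arrays were sought by Pearson r among 4475 genes with an SD of at least 0.3. For Il1b they were Cars (r = 0.998), Cxcl5 (0.996) and Zfp454 (0.995). For Il33 they were T2 (0.995), Ptger3 (0.993) and 5033403F01Rik (0.990). For Il1r2 they were Clec4a4 (0.976), Card9 (0.963) and Cpa3 (0.935). All r values share the same 6 libraries and are the highest of many, so they only describe these arrays. Among the 9 genes Il1a, Il1b and Il1rn had r values of 0.89 to 0.95 with one another, and Il1r2 had -0.05 with Il1b.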

How the data were processed

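Lung RNA of 6 mice, 3 per group, was hybridised to 1 one-colour Agilent array each. Groups and mouse numbers came from the titles. Spot intensity values, as deposited, came from Agilent Feature Extraction, version 10.7.3.1 per the file headers, whereas the submitters' processing notes name 9.1. The deposited value table holds log2 values, which equalled those computed here less a constant per probe within 0.01 for 100% of probes, so its arrays were scaled to the 75th percentile. The origin of that constant is unknown and it cancels in differences. Its column medians ran from -0.04 to 0.08.

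From the log2 processed signal, that percentile of the non-control probes was subtracted. Control and outlier spots were left out, spots of a probe were averaged, and no spot was saturated. Accessions without versions were matched to RefSeq transcripts of GRCm38.p6, which named 32994 of 56605 probes. The array design names another build, so array probes have no coordinates here. A gene was represented by its brightest probe and tested where 3 or more arrays had it well above background. Differences were tested with limma 3.58.1 in R 4.3.3 (lmFit, eBayes, two-sided) with Benjamini-Hochberg adjustment over 32457 features. The fit was checked on simulated data. Normexp used the median pixel signal with an offset of 50, since no mean signal column was used.

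The 9 genes and the gene lists were chosen with earlier results of these data known. All 9 genes are named, with up to 4 genes of the smallest p per pathway list, others named for their role, and the 3 genes most correlated with each of Il1b, Il33 and Il1r2. Casp1 and Ifng were named after their values were seen. Alternatives were normexp, quantile and median scaling, other filters and probe rules, the value table, other variance models, array weights, mouse number or array row as a block, and leaving out each mouse. Same-numbered mice did not deviate together (correlations -0.01, -0.16 and -0.28), so the numbers were not taken to pair them. Figures were drawn with matplotlib 3.10.9.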

Additional observations from a re-analysis of the deposited data

How the results depend on the processing

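The direction of Il1a, Il1b, Il1rn, Il18bp, Il33 and Il1rl1 was positive in all 18 alternatives of processing or left-out mice. Leaving out each mouse gave log2 differences of 0.78 to 1.24 for Il1a, 0.80 to 1.62 for Il1b, 0.90 to 1.55 for Il1rn, 0.83 to 1.05 for Il33, -0.034 to 0.21 for Il1r1, -0.12 to 0.27 for Il1r2 and -0.075 to 0.16 for Il18. For Il1r1 the negative values were -0.01 without saline mouse 3 and -0.034 without antithrombin mouse 3. For Il1r2 they were -0.02 without saline mouse 1, -0.05 without saline mouse 3, and -0.12 and -0.06 without antithrombin mice 1 and 2. For Il18 it was -0.075 without antithrombin mouse 3. With array weights Il1a (1.01), Il1rn (1.34) and Il33 (1.02) passed the adjusted threshold, and Il1r1 (-0.052) and Il18 (-0.024) turned negative. The soluble-form probe of Il1rl1 gave -0.063. The count of the 9 genes higher at an unadjusted p was 3 without a filter on dim probes, 3 with the array row as a block, and 3 to 4 when a mouse was left out. The adjusted count was 3 with array weights and 0 to 4 when a mouse was left out.

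The log2 ratios that turned were Il1rn to Il1b (0.11 with array weights, 0.07 without saline mouse 3, 0.31 without antithrombin mouse 3, range over left-out mice -0.21 to 0.31), Il1rn to Il1a (-0.071 without saline mouse 1, up to 0.31 over left-out mice and 0.47 with normexp), Il1r2 to Il1r1 (0.25 with array weights, 0.09 without saline mouse 2, 0.31 without antithrombin mouse 3, from -0.30) and Il1rl1 to Il33 (0.044 without saline mouse 1, from -0.86).

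Counts at an unadjusted p in the pathway lists moved too. Other family members higher were 1 without a filter, 0 with the replicate block and 0 to 3 when a mouse was left out. Signalling genes were 1 higher with array weights, and 0 to 2 when a mouse was left out. Signalling genes lower were 3 with normexp, 0 with quantile normalization, median scaling or the replicate block, 2 with the mean of probes or a trended variance, 5 with array weights, and 0 to 3 when a mouse was left out. Processing genes were 5 higher with array weights (1 to 5 when a mouse was left out). Processing genes lower were 1 with normexp or the strict filter, 3 with a trended variance or array weights, and 0 to 3 when a mouse was left out. Interleukin-1 response genes were 6 to 13 higher and 0 to 1 lower when a mouse was left out. Interleukin-18 axis genes lower were 1 with array weights and 0 to 1 when a mouse was left out. Interleukin-33 axis genes lower were 2 with normexp or a trended variance, 0 with quantile normalization, the mean of probes or the replicate block, 3 with array weights and 0 to 4 when a mouse was left out, and 1 to 2 were higher.

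Over all features the count higher at an unadjusted p was 4361 with array weights and 1823 to 4367 when a mouse was left out, and lower 2324 to 5952. Past the adjusted threshold there was 1 with normexp, quantile, median scaling, either filter, single probes, a trended variance or the row block, 0 with the replicate block, 2565 with array weights and 0 to 3415 when a mouse was left out. With the replicate block the 9 genes had adjusted p values of at least 0.302, and Il1b had an unadjusted p of 0.0684. The cause of these shifts was not tested.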
